A study of Mus musculus with 12 samples.

Results

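The 10 genes described here encode proteins of antigen presentation on MHC class I molecules. They are the heavy chain genes H2-K1, H2-D1, H2-Q6 and H2-Q7, the light chain gene B2m, the peptide transport and loading genes Tap1 and Tapbp, the immunoproteasome subunit genes Psmb8 and Psmb9, and the transactivator gene Nlrc5. The rule names them by symbol, and each symbol was matched to its Ensembl gene row. All 10 were found among the 56647 genes with a value in every library, and all 10 were among the 9688 genes that passed the filter on low counts.

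Heart muscle RNA came from wild-type mice in 3 groups. The 3 sham vehicle mice are named as vehicle-treated in one label and as sham in another. In the 3 MI mice the left coronary artery was ligated, which causes myocardial infarction (MI), and their labels name neither a vehicle nor an injection. The 4 NECA-treated MI mice received NECA, 5'-(N-ethylcarboxamido)adenosine, an adenosine analogue that activates adenosine receptors, delivered locally into the infarct. The effect of NECA and that of its injection therefore cannot be told apart, and the same holds for ligation and a missing vehicle. The labels give no age, sex or time of sampling. The labels name the animals as separate mice, and the part of the infarcted heart that was sampled is not stated.

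Class I molecules pair a membrane-spanning heavy chain with beta-2 microglobulin and show peptides from inside the cell to CD8 T cells. The proteasome makes the peptides, TAP carries them into the endoplasmic reticulum, and tapasin, encoded by Tapbp, helps to load them. In cells exposed to interferon, immunoproteasome subunits replace constitutive catalytic subunits, and NLRC5 works through factors on a conserved SXY element of class I and B2m promoters. Heart muscle cells are known for low class I levels, whereas endothelial cells and leukocytes carry more.

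The promoter windows are shown for the 5 genes in which a search for letters of that element, TGAC followed by 20 or 21 bases and ATTGG (the reverse complement of a CCAAT box), found a match. Windows ran from 250 bases before to 50 after the RefSeq start on GRCm38.p6, and both strands were searched. Capitals mark TGAC with the base after it, and ATTGG. Each is written in the direction of transcription.
H2-K1 (chr17:34000359-34000388, minus strand): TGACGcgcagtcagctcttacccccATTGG
H2-D1 (chr17:35262993-35263022, plus strand): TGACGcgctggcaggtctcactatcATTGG
H2-Q6 (chr17:35424747-35424775, plus strand): TGACCtgtaacagttctcacccctATTGG
H2-Q7 (chr17:35439091-35439119, plus strand): TGACGtgtaacagttctcacccctATTGG
B2m (chr2:122147609-122147638, plus strand): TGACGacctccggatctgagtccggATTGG

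These 5 matches lay before the annotated starts, and the spaced pair occurred in 0.408% of all 32851 promoter windows. Counted from 1 at the first capital, the H2-Q6 stretch differed from the H2-Q7 stretch by G5C alone in 29 bases. H2-Q6 therefore lacked the TGACG form of the pair, which the other 4 genes had and which 0.131% of all windows held. An interferon regulatory factor element, spelled AGTTTC, any 2 bases and TTC, was found in the windows of H2-K1, H2-D1, H2-Q6 and H2-Q7 and in 0.527% of all windows. The element GAAA, any 2 bases and GAAA was found in that of B2m (3.44% of all windows), and TTC, any 3 bases and GAA, the spelling of a gamma-interferon activated site, in that of Psmb8 (8.3%). Tap1 and Psmb9 lie head to head, with starts 226 bases apart on opposite strands, so their windows shared 275 of 300 bases. Nlrc5 had no window in the table. These matches are letters in a window and not measured binding.

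Levels between genes were compared per length, as TPM (transcripts per 1e6, length-corrected) from the authors' table. B2m had the highest median over the 10 mice at 247 TPM, followed by H2-K1 at 245 TPM and H2-D1 at 130.3 TPM. Tapbp had a median of 35.9 TPM, Psmb8 16.9, H2-Q6 12.2, H2-Q7 11.8, Psmb9 9.87, Tap1 6.21 and Nlrc5 2.89 TPM. The ranges over mice overlapped between B2m and H2-K1 (125 to 470.0 and 107 to 381 TPM). H2-Q6 and H2-Q7 also overlapped, at 6.30 to 18.2 and 3.82 to 16.6 TPM. The reads come from 3′ ends, which do not grow with transcript length, so this order depends on the division by length. Without that division H2-D1 came first in every group, with mean levels of 192, 261 and 254 CPM (counts per 1e6) in sham vehicle, MI and NECA-treated mice. H2-K1 had 170.8, 245 and 214 CPM and B2m 148, 241 and 184 CPM.

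Levels of the 10 genes in CPM are after TMM scaling, which corrects each mouse's total for differences in composition, and are otherwise compared only within a gene. Marker sums and values of single libraries are CPM of each library's total, without that scaling. The 10 shallower libraries held 0.96 to 1.33 M counts (M, 1e6), where 3 counts, the limit that a count of 0 allows, come to at most 3.13 CPM. MI mice 2 and 3 each had a pair of libraries, labelled 1st and 2nd, and their 1st libraries held 30.7 and 27.1 M counts and dominate the sums used. Values from their 2nd libraries alone are called within-batch values. The labels name no batch, and this term rests on the similar depth of the shallower libraries alone. The 12 cardiomyocyte markers were at 61013 to 86914 CPM in sum. Of all mice, number 3 of the sham vehicle group had the highest sums of atrial muscle markers (7305 CPM, with all 5 markers detected), fat cell markers (773 CPM) and T and NK cell markers (68.4 CPM). The atrial sum of MI mouse 3 was also high, at 3831 to 4258 CPM against 67.8 to 293 CPM elsewhere, but in its 2nd library Nppa alone gave the sum and the other 4 markers were at 0. Myl4, Myl7 and Sln stood at 1346, 785 and 285 CPM in sham vehicle mouse 3, and at most at 3.13, 0.11 and 0 CPM in MI mouse 3.

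In MI against sham vehicle mice, 8 of the 10 genes had log2 fold changes above 0, against 50.5% of all genes, with the highest values for H2-Q7, H2-Q6, Psmb8 and B2m, but none passed the test. The threshold was an adjusted p under 0.05 over all 9688 genes in edgeR's quasi-likelihood test, which 0.155% of all genes passed in this comparison. The median of the 10 genes was 0.48 on the log2 scale, against 0.00 for all genes, and 0.38 within the batch. It was 0.28 without sham vehicle mouse 2 and 0.76 without sham vehicle mouse 3. At an unadjusted p under 0.05, 5 of the 10 were higher, against 7.31% of all genes. Of these, H2-Q6 and H2-Q7 alone stayed under 0.05 within the batch (edgeR unadjusted p = 0.0264 and 0.00018). B2m, H2-K1 and Psmb8 were then at 0.0555, 0.126 and 0.134. DESeq2, where it gave an adjusted p, and limma on log2(TPM + 1) also called none of the 10 in this and the other comparisons. H2-Q6 and Psmb8 were the 2 whose MI mice all lay above all sham vehicle mice, as did 7.34% of all genes.

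Bulk RNA does not tell fewer cells of a type from less RNA per cell. H2-K1 and H2-D1, the classical heavy chain genes, present peptides to CD8 T cells. H2-K1 stood at 160.1, 109.8 and 242 CPM in sham vehicle mice 1 to 3, at 247, 228 and 261 CPM in MI mice 1 to 3, and at 194, 282, 171 and 207 CPM in NECA-treated mice 1 to 4. The groups overlapped, because sham vehicle mouse 3 lay within the range of the MI mice. Its log2 fold change was 0.52 ± 0.25 (SE, edgeR adjusted p = 0.335) for MI against sham vehicle. H2-D1 stood at 168, 135 and 274 CPM in sham vehicle mice, at 272, 223 and 288 CPM in MI mice, and at 268, 294, 242 and 213 CPM in NECA-treated mice. As for H2-K1, the sham vehicle mouse 3 value reached into the MI range, and the log2 fold change was 0.44 ± 0.23 (edgeR adjusted p = 0.401).

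H2-Q6 and H2-Q7 belong to the nonclassical Qa-2 group of heavy chains. H2-Q6 stood at 17.7, 14.8 and 14.7 CPM in sham vehicle mice, at 29.5, 28.9 and 23.95 CPM in MI mice, and at 25.6, 36.05, 25.1 and 30.6 CPM in NECA-treated mice. Every ligated mouse lay above every sham vehicle mouse. The means were 15.7 ± 1.70 CPM (SD, n = 3) in sham vehicle, 27.5 ± 3.06 CPM (SD, n = 3) in MI and 29.4 ± 5.10 CPM (SD, n = 4) in NECA-treated mice. For MI against sham vehicle the log2 fold change was 0.80 ± 0.24 (edgeR adjusted p = 0.145), and 0.64 within the batch. For both MI groups together against sham vehicle it was 0.85 ± 0.22 (adjusted p = 0.249), and H2-Q6 was the only one of the 10 whose 7 ligated mice all lay above the 3 sham vehicle mice, as did 1.65% of all genes. H2-Q7 missed this by MI mouse 2 alone, at 19.627 against 19.639 CPM in sham vehicle mouse 1, and within the batch its ligated mice (27.7 to 43.5 CPM) all lay above the sham vehicle mice (at most 19.6 CPM). For H2-Q6 the closest within the batch were MI mouse 3 (18.8 CPM, 20 counts) and sham vehicle mouse 1 (17.7 CPM, 18 counts). Before TMM scaling their exact 95% intervals were 12.7 to 32.2 and 9.15 to 24.4 CPM, so counting error covers this gap.

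H2-Q7 stood at 19.6, 10.7 and 13.2 CPM in sham vehicle mice, at 27.7, 19.6 and 29.5 CPM in MI mice, and at 31.3, 32.1, 31.2 and 31.6 CPM in NECA-treated mice. The NECA-treated mice lay close together, at 31.5 ± 0.425 CPM (SD, n = 4), from 39, 41, 36 and 32 counts. Counting error is wider than that SD: for NECA-treated mouse 4 the exact 95% interval before TMM scaling was 20.6 to 42.5 CPM. The small SD therefore does not show that these mice varied little. MI mouse 2 and sham vehicle mouse 1 had the same value to 1 decimal. Against sham vehicle the log2 fold change was 0.82 ± 0.26 in MI mice (edgeR adjusted p = 0.170) and 1.14 ± 0.26 in NECA-treated MI mice (adjusted p = 0.619), 6th of all genes by p. The libraries of MI mouse 2 disagreed. Before TMM scaling its 1st library had 519 counts, or 16.9 CPM (exact 95% binomial interval 15.5 to 18.4), and its 2nd had 39 counts, or 40.1 CPM (28.5 to 54.9). With the 2nd libraries alone H2-Q7 rose in both MI groups together against sham vehicle, by 1.17 ± 0.23 (adjusted p = 0.0497, a threshold that 0.105% of all genes passed), against 0.98 ± 0.24 (adjusted p = 0.231) with all libraries. These intervals cover counting error only.

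Parts of the 4 heavy chain genes occur in other genes. Of the 50-base words in the GENCODE M21 transcripts, 40.2% of those of H2-Q7 and 32% of those of H2-Q6 occurred in other genes. For H2-D1 and H2-K1 it was 14.3% and 8.79%. A 3′ protocol reads the ends of transcripts, but the positions of these reads were not examined. Over the last 300 bases of 1 transcript a gene, the share was 40.2% for H2-Q6, 17.1% for H2-D1, 0.797% for H2-K1 and 0% for H2-Q7. There 38.6% of the H2-Q6 words occurred in Efr3a, a gene that is no heavy chain, and its part in the counts of H2-Q6 was not tested. When H2-Q4, H2-Q6 and H2-Q7 were summed, the log2 fold change was 0.54 ± 0.18 for MI against sham vehicle (edgeR adjusted p = 0.191). H2-Q6 and H2-Q7 made up 10.2%, 9.39% and 5.13% of the counts of the 4 heavy chain genes in sham vehicle mice, 8.79% to 14.3% over the libraries of the MI mice, and 11.0%, 10.6%, 12.01% and 12.9% in NECA-treated mice. The lowest share was in sham vehicle mouse 3, and the other 2 sham vehicle mice overlapped the MI libraries. This share was chosen after the values were seen and is given without a test.

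**Figure D1:**
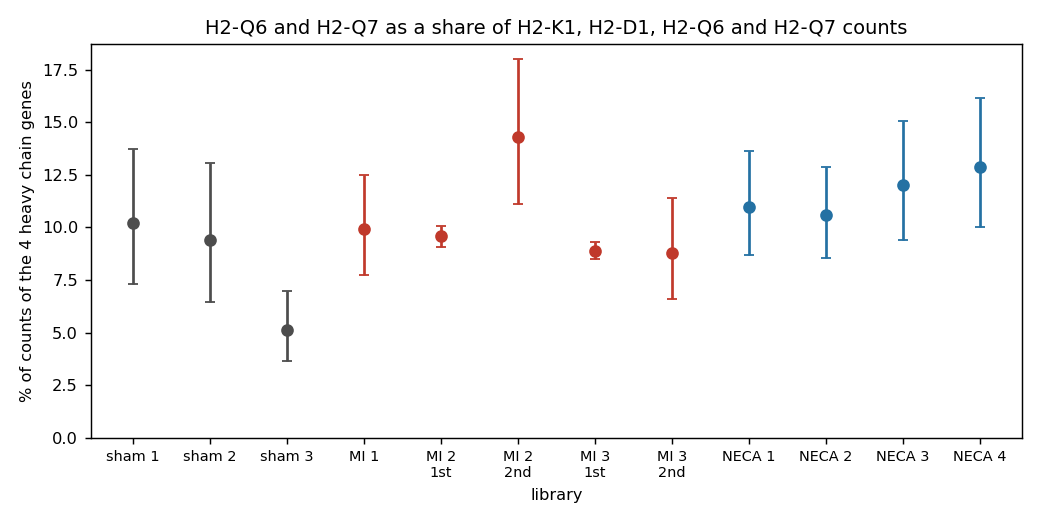
Percent of the counts of H2-K1, H2-D1, H2-Q6 and H2-Q7 that came from H2-Q6 and H2-Q7 in each of the 12 libraries, with exact 95% binomial intervals as bars. Sham vehicle mouse 3 is lowest at 5.13%, and the 2nd library of MI mouse 2 is highest at 14.3%.

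B2m encodes the light chain that every class I heavy chain needs at the cell surface. It stood at 110.0, 108 and 226 CPM in sham vehicle mice, at 200.2, 261 and 262 CPM in MI mice, and at 156, 245, 157 and 178 CPM in NECA-treated mice. Of the sham vehicle mice, mouse 3 lay above MI mouse 1, and the other 2 lay below all ligated mice. The log2 fold change for MI against sham vehicle was 0.70 ± 0.27 (edgeR adjusted p = 0.239). Without sham vehicle mouse 3, the library with the highest T cell, fat and atrial sums, B2m rose by 1.15 ± 0.24 (adjusted p = 0.0434). It also passed with MI mouse 3 left out too, at 1.09 ± 0.22 (adjusted p = 0.0295), and was then the only one of the 9 members tested to do so. Over all genes, 40 passed in the first of these fits and 47 in the other, against 15 with all mice. Sham vehicle mouse 3 had the highest B2m of its group, so leaving it out raises this fold change in any case. The fit without both mice was chosen after the values were seen. For NECA-treated MI against MI the log2 fold change was -0.40 ± 0.24 (adjusted p = 0.559).

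Tap1, a subunit of the peptide transporter, was at 19.6, 16.4 and 17.6 CPM in sham vehicle mice, at 12.5, 11.2 and 22.97 CPM in MI mice, and at 15.2, 25.9, 18.2 and 15.8 CPM in NECA-treated mice. The groups overlapped throughout, and the log2 fold change for MI against sham vehicle was -0.14 ± 0.31 (edgeR adjusted p = 0.872). Tapbp, which encodes tapasin, was at 61.9, 79.5 and 103 CPM in sham vehicle mice, at 95.6, 96.2 and 107 CPM in MI mice, and at 86.6, 95.6, 58.9 and 89.9 CPM in NECA-treated mice. MI against sham vehicle gave 0.29 ± 0.21 (edgeR adjusted p = 0.544) for it.

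Psmb8 replaces Psmb5 in the immunoproteasome and Psmb9 replaces Psmb6. Psmb8 stood at 9.82, 11.5 and 14.7 CPM in sham vehicle mice, at 16.1, 19.8 and 24.2 CPM in MI mice, and at 20.04, 20.4, 13.0 and 17.8 CPM in NECA-treated mice. The MI mice all lay above the sham vehicle mice. The closest were MI mouse 1, from 18 counts, and sham vehicle mouse 3, from 20 counts. Before TMM scaling their exact 95% intervals were 9.48 to 25.3 and 9.60 to 24.3 CPM, so counting error covers this gap. For MI against sham vehicle the log2 fold change was 0.77 ± 0.28 (edgeR adjusted p = 0.218). Within the batch it was 0.52, and MI mouse 2 stood at 11.1 CPM, inside the sham vehicle range. Psmb9 stood at 7.86, 4.92 and 19.8 CPM in sham vehicle mice, at 8.05, 11.3 and 10.4 CPM in MI mice, and at 3.21, 7.84, 7.80 and 6.91 CPM in NECA-treated mice. The highest of all 10 mice was sham vehicle mouse 3. MI against sham vehicle gave -0.11 ± 0.41 (adjusted p = 0.929) for Psmb9, and 0.70 (adjusted p = 0.493) without that mouse.

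Counts of Psmb8, Psmb9 and Psmb10, set against those of the constitutive subunits Psmb5, Psmb6 and Psmb7 that they replace, made up 14.1%, 16.2% and 20.2% of the sum in sham vehicle mice. The share was 18.1% in MI mouse 1, 16.1% and 17.3% in the pair from MI mouse 2, and 22.3% and 22.4% in the pair from MI mouse 3. In NECA-treated mice it was 18.2%, 19.7%, 17.3% and 16.5%. The groups overlapped, with sham vehicle mouse 3 above MI mice 1 and 2. No test was made of this share.

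Nlrc5, the class I transactivator, had few counts, at 3, 5 and 11 in sham vehicle mice and 11 to 18 in NECA-treated mice. It stood at 2.95, 4.10 and 8.08 CPM in sham vehicle mice, at 6.26, 2.95 and 9.18 CPM in MI mice, and at 9.62, 8.62, 9.54 and 17.8 CPM in NECA-treated mice. The 4 NECA-treated mice all lay above the sham vehicle mice, and MI mouse 3 lay within their range. That mouse rested on its 1st library, at 10.9 CPM, while its 2nd had 4 counts, or 4.17 CPM. Within the batch the MI mice stood at 6.25, 6.69 and 3.76 CPM, all below the lowest NECA-treated mouse at 8.62 CPM. These MI values rested on 7, 6 and 4 counts. The log2 fold change was 1.11 ± 0.53 for NECA-treated MI against sham vehicle (edgeR adjusted p = 0.999) and 0.88 ± 0.44 for NECA-treated MI against MI (adjusted p = 0.480). MI against sham vehicle gave 0.23 ± 0.53 (adjusted p = 0.881), and -0.49 (adjusted p = 0.754) without MI mouse 3.

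**Figure D2:**
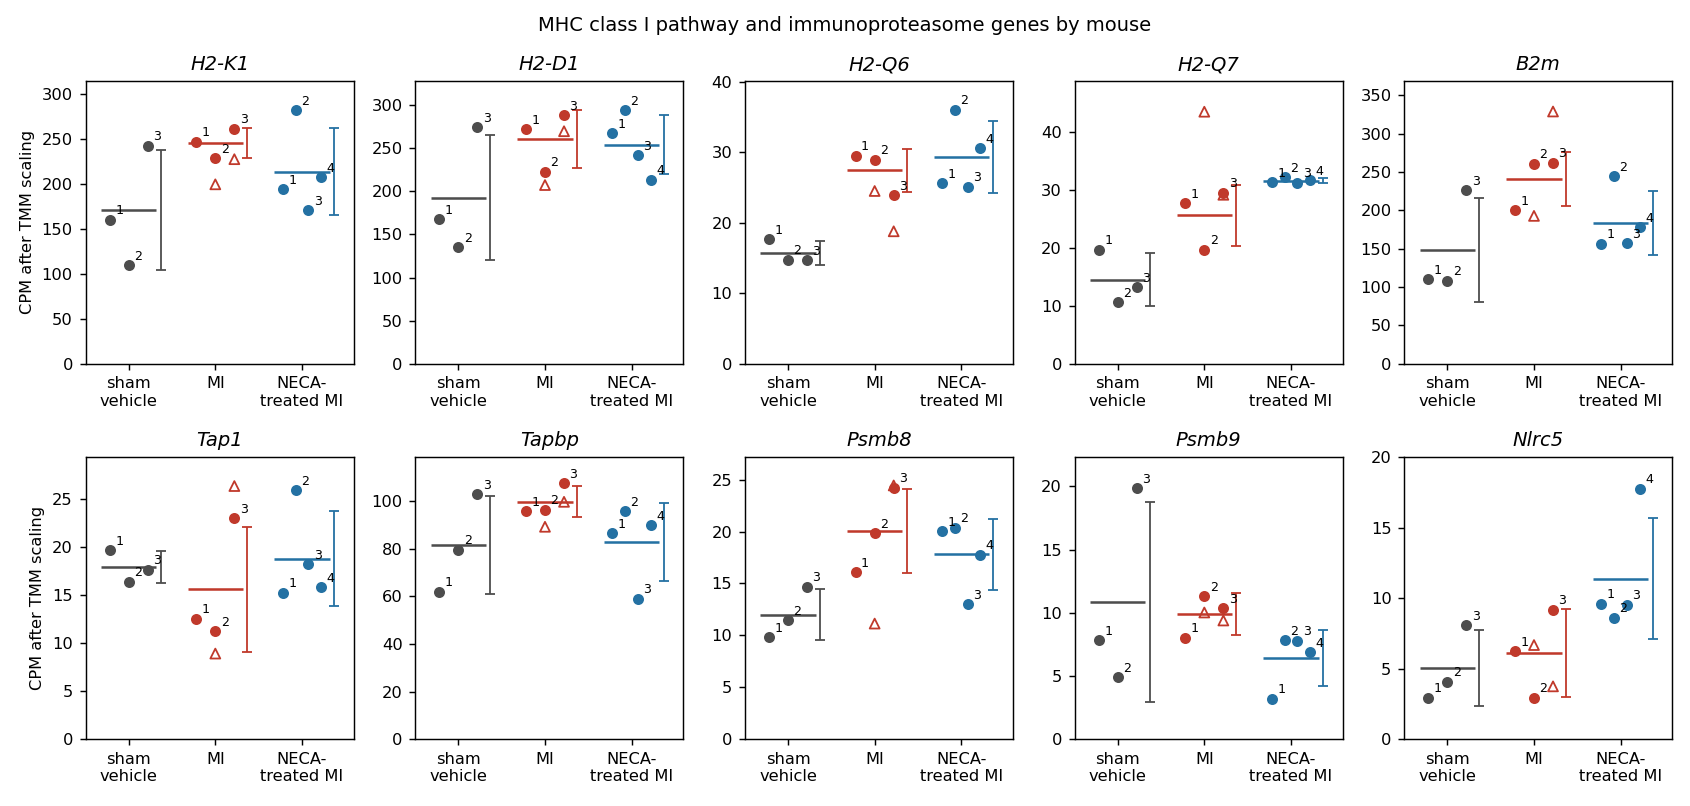
CPM after TMM scaling of each of the 10 genes in each mouse (filled points, numbered by mouse; axes start at 0), with the group mean as a line and the SD as a bar beside it. Open triangles are the 2nd libraries of MI mice 2 and 3 alone. The 7 ligated mice lie above the 3 sham vehicle mice for H2-Q6, and sham vehicle mouse 3 lies within the MI range for H2-K1 and H2-D1.

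In NECA-treated MI against MI mice, the comparison the series is about, 4 of the 10 genes had log2 fold changes above 0, against 47.8% of all genes, and none passed the test, which 0.0103% of all genes did. The median of the 10 genes was -0.12, against -0.02 for all genes, and -0.02 within the batch. None of the 10 had an unadjusted p under 0.05 with all libraries either, against 5.7% of all genes that were higher and 5.24% that were lower. Within the batch Nlrc5 did, with a log2 fold change of 1.01 (unadjusted p = 0.0401, edgeR adjusted p = 0.799). H2-Q7 was higher without overlap, as were 4.96% of all genes, with a log2 fold change of 0.32 ± 0.22 (edgeR adjusted p = 0.614). Within the batch that value was -0.07. Tapbp and Psmb9 were lower without overlap, as were 4.16% of all genes, with log2 fold changes of -0.27 ± 0.19 (adjusted p = 0.619) and -0.68 ± 0.41 (adjusted p = 0.551). The highest NECA-treated and the lowest MI value of Tapbp were 95.61 and 95.65 CPM, and within the batch the groups overlapped, with MI mouse 2 at 89.1 CPM. For Psmb9 the highest NECA-treated value was 7.84 CPM from 10 counts, and the lowest MI value was 8.05 CPM from 9 counts.

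In NECA-treated MI against sham vehicle mice, a comparison that shares its sham vehicle mice with the first and its treated mice with the second, 9 of the 10 genes had log2 fold changes above 0, against 48.1% of all genes. None passed the test, which 0% of all genes did. The median was 0.36, against -0.01 for all genes, with 0.16 without sham vehicle mouse 2 and 0.74 without sham vehicle mouse 3. At an unadjusted p under 0.05, 2 of the 10 were higher (H2-Q6 and H2-Q7), against 2.26% of all genes. H2-Q6, H2-Q7 and Nlrc5 were higher without overlap, as were 4.28% of all genes. The log2 fold change of H2-Q6 was 0.91 ± 0.24 (edgeR adjusted p = 0.910), 13th of all genes by p.

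H2-K1, H2-D1, B2m and Psmb8 had 0.32, 0.40, 0.31 and 0.56 in NECA-treated MI against sham vehicle mice, beside 0.52, 0.44, 0.70 and 0.77 in MI against sham vehicle mice. Psmb9 had -0.79 and -0.11. Whether treated and untreated ligated mice differ is the NECA-treated MI against MI test above. Both MI groups together against sham vehicle gave a median of 0.46 for the 10 genes, against -0.01 for all genes, and 0.27 and 0.78 without sham vehicle mouse 2 and mouse 3. Of the 10, 8 were above 0, against 48.5% of all genes. At an unadjusted p under 0.05, 4 of the 10 were higher, against 4.37% of all genes, and none was past the threshold, which 0.0516% of all genes passed. Of these 4, H2-Q6 and H2-Q7 alone stayed under an unadjusted p of 0.05 within the batch, and B2m and Psmb8 did not.

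**Figure D3:**
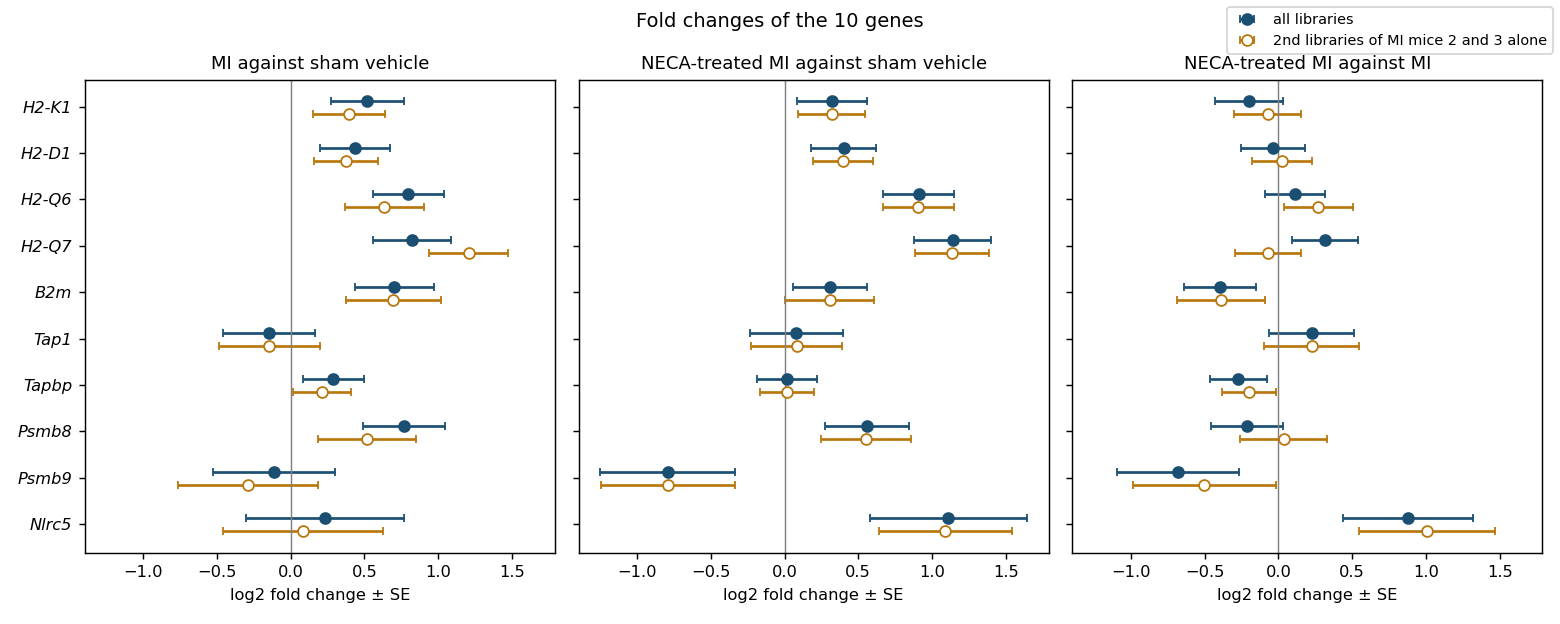
Log2 fold changes with standard errors of the 10 genes in 3 comparisons, with all libraries (filled) and with the 2nd libraries of MI mice 2 and 3 alone (open). H2-Q7 shifts from 0.32 to -0.07 for NECA-treated MI against MI when the 2nd libraries are used, and no gene passed the adjusted threshold in these 3 comparisons with either set.

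The 19 leukocyte markers summed to 338, 286 and 689 CPM in sham vehicle mice, 481 to 1581 CPM over the libraries of MI mice, and 678 to 999 CPM in NECA-treated mice, so that sham vehicle mouse 3 overlapped both ligated groups. Of the 13 tested, all 13 had log2 fold changes above 0 in MI against sham vehicle mice, with a median of 1.06, and none passed the test. Sums of the 19 T and NK cell markers ranged from 1.503 to 68.4 CPM over sham vehicle mice, from 4.12 to 12.5 CPM over MI libraries and from 4.07 to 20.7 CPM in NECA-treated mice. None of them had counts enough to be tested, and 3 to 17 of the 19 were at 0 in the shallower libraries. Trac, the T cell receptor alpha constant gene, was at 0 in 4 of those libraries and at most at 3.18 CPM. Of the 10 fibroblast markers tested, 9 had log2 fold changes above 0 in MI against sham vehicle mice. Their median was 1.86, and none passed the test. Sums of fibroblast markers ranged from 1429 to 3861 CPM over sham vehicle mice, from 2327 to 14363 CPM over MI libraries and from 2615 to 6612 CPM in NECA-treated mice. Those of endothelial markers ranged from 1647 to 2287, from 2068 to 2685 and from 1967 to 2149.5 CPM. Sham vehicle mouse 3, which had the highest H2-K1, H2-D1, B2m, Tapbp, Psmb8, Psmb9 and Nlrc5 of its group, also had the highest leukocyte, T and NK cell, and fibroblast sums of its group. The part of these cells in the values above was not tested.

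**Figure D4:**
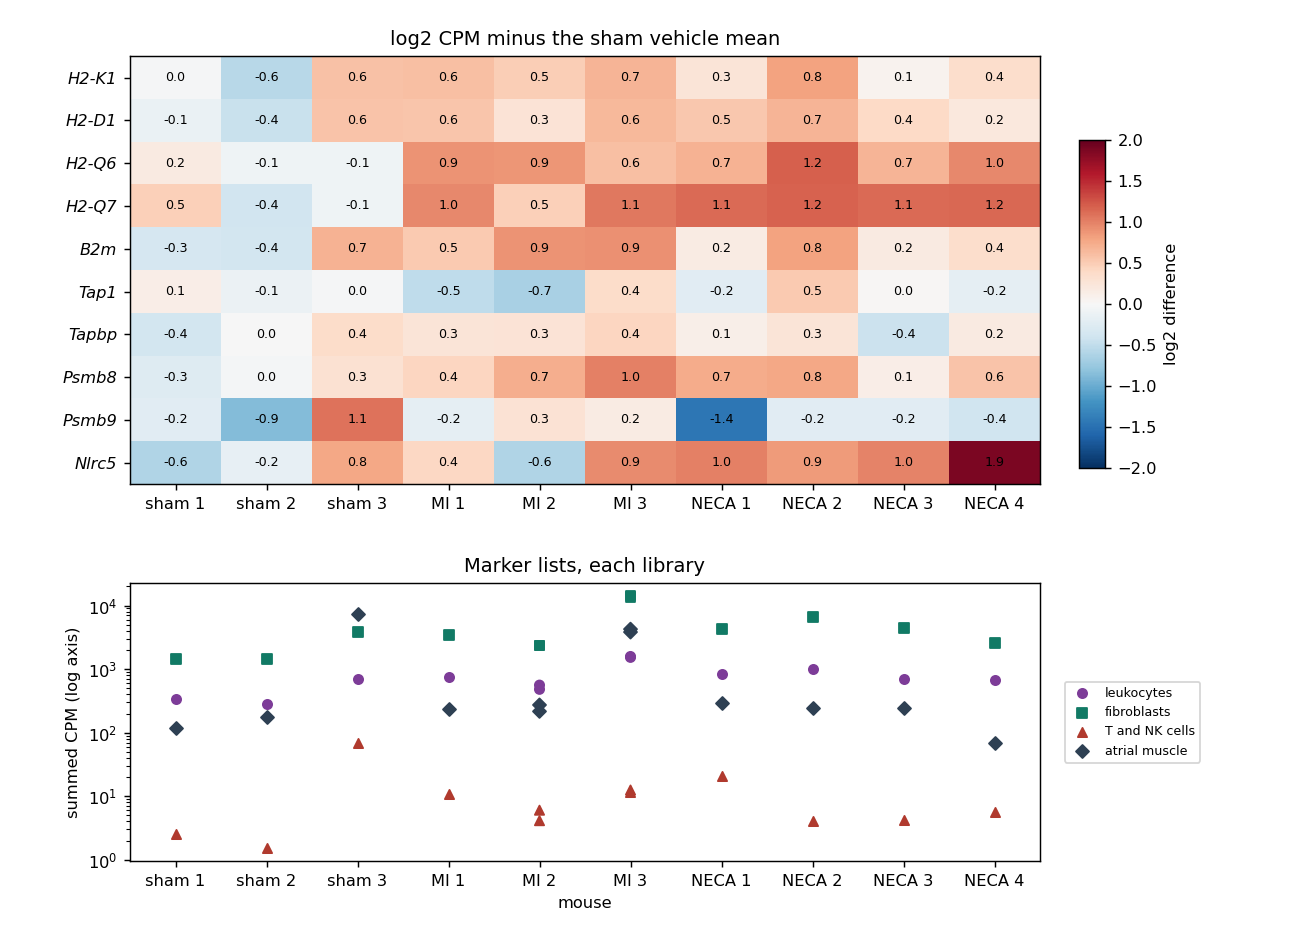
Above, log2 CPM of each of the 10 genes in each mouse minus the mean of the sham vehicle mice (red higher, blue lower). Below, summed CPM of 4 marker lists in each library, on a log axis. Sham vehicle mouse 3 has leukocyte, T and NK cell, fibroblast and atrial sums above those of the other 2 sham vehicle mice, together with higher values for 7 of the 10 genes.

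Of 8102 genes with at least 10 CPM on average, those whose pattern over the 10 mice was most like the mean pattern of the 8 members above that level were Anxa2, Lyz2, Rnf145, C1qb and C1s1. Their Pearson r values were 0.948, 0.935, 0.935, 0.933 and 0.932 (Spearman 0.758, 0.770, 0.661, 0.842 and 0.915). Without sham vehicle mouse 3 and MI mouse 3 the Pearson values were 0.977, 0.931, 0.929, 0.957 and 0.930. Lyz2 and C1qb are markers of macrophages, and Dcn, of the fibroblast list, had rank 9 at 0.921. Other markers of both lists lay lower, such as Ptprc and Csf1r at ranks 183 and 437 and Pdgfra at rank 384. These values describe likeness across mice that share libraries and scaling.

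In the 7 lists of the wider pathway, no gene passed the threshold in any of the 4 comparisons with all libraries and the count filter. The lists include the 10 genes themselves. H2-K1, H2-D1, H2-Q6 and H2-Q7 are among the heavy chains, and B2m, Tap1 and Tapbp among the loading genes. Psmb8 and Psmb9 are in the immunoproteasome list, and Nlrc5 is among the regulators. Counts and medians of those lists therefore partly repeat values given above. Of 10 heavy chain genes tested (of 21 in the files), 8 were above 0 in MI against sham vehicle mice with a median log2 fold change of 0.51. Among them H2-T22, H2-T23 and Fcgrt, the neonatal Fc receptor heavy chain, had 0.85, 0.60 and 0.49. Of 11 light chain, transport and loading genes 7 were above 0, with a median of 0.15. Pdia3, a disulfide isomerase of the loading complex, had 0.71 ± 0.21 (edgeR adjusted p = 0.138), which without a count filter passed at 0.76 (adjusted p = 0.0433). Calr had 0.20, and Abcb9, a lysosomal peptide transporter, had -0.88.

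Of 8 immunoproteasome and activator genes 5 were above 0, with a median of 0.33 and 0.10 within the batch. Psme2, an activator subunit, and Psmb10 had 0.48 and 0.46, with 0.016 and 0.18 within the batch, and Psme3 had -0.43. The 14 constitutive core subunits, which make the ordinary proteasome, had a median of 0.31 with 13 above 0, and 0.15 with 8 above 0 within the batch. Psmb8 at 0.77 lay above the median of both lists and Psmb9 at -0.11 below it. For NECA-treated MI against MI, 0 of these 14 were above 0, with a median of -0.32 and -0.18 within the batch. The immunoproteasome and activator list had a like median there, at -0.33 and -0.14 within the batch, with 2 of 8 above 0. Of all genes, 47.8% were above 0 in that comparison. Psma5, Psma7 and Psmb1 had 0.71, 0.53 and 0.42 in MI against sham vehicle mice.

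Of 17 tested regulators of class I transcription 8 were above 0, with a median of -0.01, and Irf8, Irf1 and Nfya had 1.01, 0.47 and -0.31, with 1.56, 0.41 and -0.08 within the batch. All 7 tested interferon receptor and kinase genes were above 0, with a median of 0.16, and Ifngr1, Jak2 and Jak1 had 0.37, 0.18 and 0.16, with 0.60 for Jak2 within the batch. Of 27 interferon-induced genes tested (of 37) 20 were above 0, with a median of 0.21. Ifitm2, Gbp2 and Gbp6 had 0.63, 0.53 and -0.53.

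**Figure D5:**
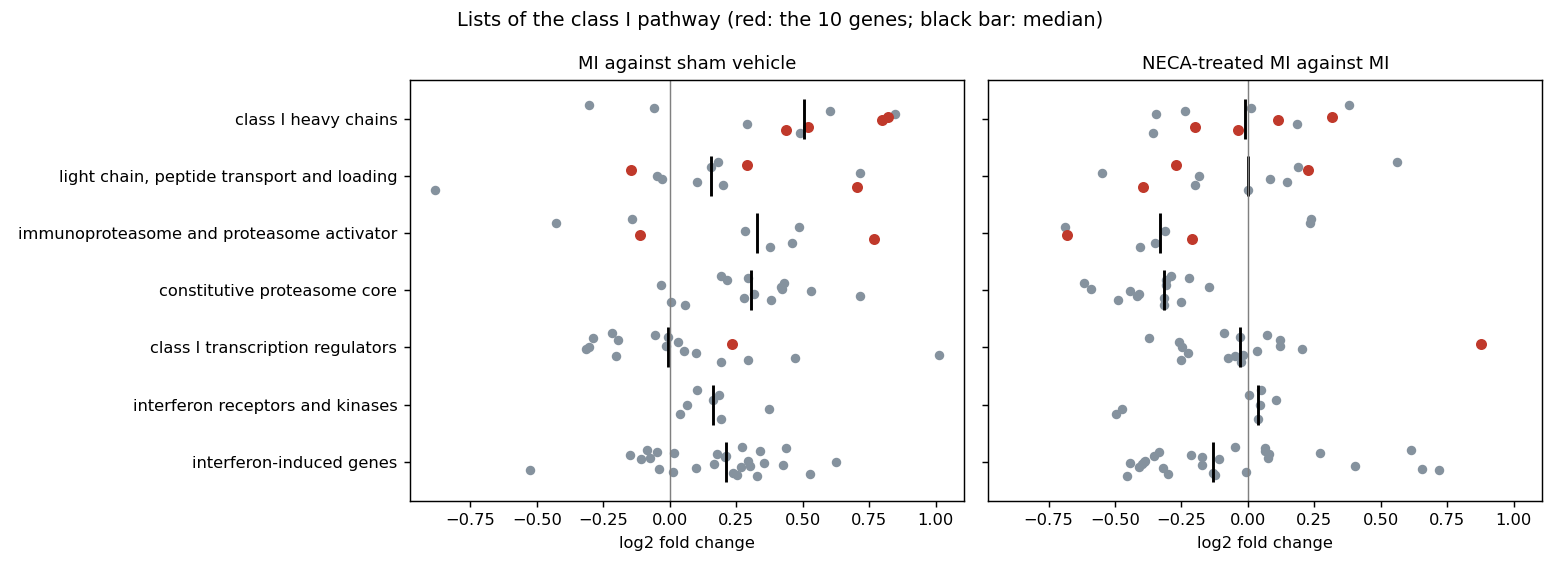
Log2 fold changes of the tested genes of 7 lists in MI against sham vehicle mice (left) and in NECA-treated MI against MI mice (right), 1 point a gene, with the 10 genes in red and the median of each list as a black bar. The heavy chain list has medians of 0.51 and -0.01, and all 14 constitutive core subunits lie below 0 on the right.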

How the data were processed

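Heart tissue RNA of 10 mice was read in 12 libraries by a CEL-Seq2 3′ protocol, per the labels' protocols. STAR, RSEM and FastQC 0.11.9 on GRCm39 are named in the submitters' processing notes. Annotation release, strand use and molecular identifiers: not given in the sources used here. Expected counts from RSEM, already whole numbers, and log2(TPM + 1) values were deposited by the authors. RSEM divides reads among near-identical genes. Of 57054 rows, 56647 had a value in all 12 libraries, and only these were analysed. Symbols came from GENCODE M21 through Ensembl identifiers (52029 rows matched), and no gene coordinates were taken from that annotation, which is of another build. Promoter windows are from RefSeq on GRCm38.p6.

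Counts were summed per mouse and tested with edgeR 4.0.16 in R 4.3.3 (filterByExpr, TMM, robust quasi-likelihood, two-sided, Benjamini-Hochberg over 9688 genes) in 1 fit over all mice. On simulated counts over 9688 genes, the share of 2-fold and 4-fold changes recovered was 31% and 95% (MI against sham vehicle), 33% and 90% (NECA-treated MI against MI), and 25% and 88% (NECA-treated MI against sham vehicle). The 10 genes are named in full. Of each list, genes past the threshold are named, or else up to 3 with the smallest p in MI against sham vehicle. The members and lists were chosen with earlier results of these data known. Alternatives were DESeq2 1.42.0, limma 3.58.1 on the log2 values, other scalings, no count filter, single libraries, a replicate block, summed H2-Q genes and leaving out each mouse. The labels do not say whether mouse numbers pair the groups, and the main fit used no pairing. Same-numbered mice correlated at r = -0.248 to 0.199 in their deviations, and mice of other numbers and groups at -0.282 to 0.268. With so few mice a group, these values cannot decide whether the numbers pair.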

Additional observations from a re-analysis of the deposited data

Results flagged for a closer look

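Among 20 sets of 4 NECA-treated mice (the 10 genes, 8 marker lists and 2 shares), 3 had a mouse far from the others, where chance gives about 1 in 20. Nlrc5 stood at 17.8 CPM in NECA-treated mouse 4, from 18 counts, against at most 9.62 CPM in the other 3. The skeletal muscle markers summed to 334 CPM in the same mouse, against at most 5.13 CPM in the other 3. The T and NK cell markers summed to 20.7 CPM in NECA-treated mouse 1, against at most 5.65 CPM in the other 3. That mouse also had the lowest Psmb9 of the 10 mice, at 3.21 CPM from 4 counts.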

How the results depend on the processing

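None of the 10 genes passed in the main fit. Over 95 alternatives, 7 had 1 of them past the threshold and the others had 0. For MI against sham vehicle the 1 was B2m, without a count filter (0.75, adjusted p = 0.0499), without sham vehicle mouse 3, and in both alternatives chosen after seeing the data (sham vehicle mouse 3 and MI mouse 3 left out, or sham vehicle mouse 3 left out with the 2nd libraries alone, 1.14, adjusted p = 0.0435). For both MI groups against sham vehicle it was H2-Q7 with the 2nd libraries alone and without a count filter (0.997, adjusted p = 0.0296), and B2m with sham vehicle mouse 3 and MI mouse 3 left out (0.92, adjusted p = 0.0334). Leaving out 1 mouse at a time gave 0 to 1 of the 10 for MI against sham vehicle. The count over all genes moved more. For MI against sham vehicle it was 15, and 7 with the 2nd libraries alone, 6 without scaling, 127 with DESeq2, 346 without a count filter, 0 and 1 with limma (pseudocounts 1 and 0.1), 0 with only the 2 groups, 47 and 50 in the added alternatives, and 0 to 310 leaving out 1 mouse. For NECA-treated MI against MI it was 1, and 0 with the 2nd libraries alone, without scaling, with limma and in the added alternatives, 16 with DESeq2, 74 without a filter and 0 to 121 leaving out 1 mouse. For NECA-treated MI against sham vehicle it was 0, and 1 with the 2nd libraries alone, 3 with DESeq2, 27 without a filter, 7 with only the 2 groups, 34 and 5 in the added alternatives, and 0 to 2 leaving out 1 mouse. For both MI groups it was 5, and 10 with the 2nd libraries alone, 3 without scaling, 22 with DESeq2, 170 without a filter, 1 and 2 with limma, 42 and 27 in the added alternatives, and 0 to 33 leaving out 1 mouse. With the mouse number as a replicate block the counts were 6, 0 and 1 for the first 3 comparisons, no call of the 10 genes changed, and 1 of 9 mice correlated best with its own number. The block turned H2-D1 to 0.066 for NECA-treated MI against MI and Tapbp to -0.00967 for NECA-treated MI against sham vehicle. Tap1 turned to 0.00195 without scaling for MI against sham vehicle, and for both MI groups to 0.072 without scaling and 0.00772 with limma at a pseudocount of 1. With limma at pseudocounts of 1 and 0.1, Psmb10 turned to -0.21 and -0.22, and Nfya to 0.11 and 0.11. For NECA-treated MI against MI, the 2nd libraries alone turned H2-D1 to 0.025, H2-Q7 to -0.071 and Psmb8 to 0.036. Limma turned H2-D1 to 0.00658 and 0.00684, H2-Q7 to -0.0354 and -0.0351, and Psmb8 to 0.0192 and 0.0202. The added alternatives gave H2-D1 0.049 and 0.028, H2-Q7 -0.066 and Psmb8 0.038. With sham vehicle mouse 3 left out and the 2nd libraries alone, Psmb9 turned to 0.52, 0.024 and 0.27 in MI, NECA-treated MI and both against sham vehicle. Leaving out 1 mouse at a time, Psmb9 ranged from -0.46 to 0.70, from -1.14 to 0.022 and from -0.80 to 0.36 in those 3 comparisons, and Tap1 from -0.62 to 0.14, from -0.12 to 0.18 and from -0.27 to 0.11. Nlrc5 ranged from -0.49 to 0.77 in MI against sham vehicle, and Tapbp from -0.14 to 0.22 in NECA-treated MI against sham vehicle. For NECA-treated MI against MI, H2-D1 ranged from -0.15 to 0.045, H2-Q6 from -0.021 to 0.18 and Tap1 from -0.059 to 0.70. The causes were not tested.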
